A study of Mus musculus with 12 samples.

Results

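The insulin-like growth factor (IGF) axis of mouse embryonic fibroblasts (MEFs) was followed here through 10 of the 20661 genes in the count files, chosen by name: the ligands *Igf1* and *Igf2*, the receptors *Igf1r* and *Igf2r*, and the binding proteins *Igfbp2*, *Igfbp3*, *Igfbp4*, *Igfbp5*, *Igfbp6* and *Igfbp7*. All 10 had reads in the files, and they were chosen with earlier results of these data known. MEFs of 3 groups, all at passage 4, gave 2 RNAseq and 2 ribosome profiling libraries per group, 12 in all. WT-shSCR MEFs were wildtype cells with a scrambled short hairpin RNA, WT-shARF MEFs were wildtype cells with a hairpin against ARF, and Arf-/--shSCR MEFs lacked *Arf* and carried the scrambled hairpin. Every group was therefore transduced with a lentivirus, and puromycin selection followed. In the *Arf* knockout a neo cassette takes the place of exon 1β of *Cdkn2a*, so that INK4A, the other product of that gene, is left. The sample labels give the strain of the WT MEFs as C57BL/6J, where the methods of the study give B6129SF2/J, and that of the knockout as B6.129X1-Cdkn2atm1Cjs/KaiJ, so strain and *Arf* genotype cannot be told apart. No source used here states whether replicates were separate cultures, and p-values then measure only the spread between these samples, which may be technical.

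IGF1 and IGF2 are secreted growth factors that signal through the tyrosine kinase IGF1R to the PI3K-AKT and RAS-MAPK pathways, which drive protein synthesis and growth. IGF2R, the mannose 6-phosphate receptor, has no kinase and carries IGF2 to the lysosome, where it is degraded. The IGF binding proteins hold the ligands outside the cell and can either limit or deliver them. *Igf2* is a main growth factor of the embryo, is expressed from the paternal allele and starts at several promoters, while *Igf2r* is expressed from the maternal allele in mice.

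The study asked how loss of ARF, a tumor suppressor known for activating p53, changes the translation of mRNAs that begin with a 5′ terminal oligopyrimidine (TOP) motif, a C followed by a run of pyrimidines. The annotated transcription starts of the 10 genes are therefore shown. RefSeq on GRCm38.p6, the assembly that mm10 names, gives 14 starts for them, and all 10 genes were matched. Each line is 25 bases long, 15 before the start and 10 from it, written 5′ to 3′ on the strand of the gene, with the first transcribed base in capitals.
*Igf1*, chr10:87861096-87861120, plus strand: gagatagatagccatAcaatggaaa
*Igf2*, chr7:142657487-142657511, minus strand: gacataaaaagcggaGgcactgacc
*Igf2*, chr7:142658795-142658819, minus strand: gccctctgccttcgcCtacccaagt
*Igf2*, chr7:142661262-142661286, minus strand: gcataacagtggtatCggcctcgtc
*Igf2*, chr7:142666807-142666831, minus strand: agcactgtggactctGccgaggaag
*Igf1r*, chr7:67952242-67952266, plus strand: gcgctgagcgctgcgCggccgccgc
*Igf2r*, chr17:12769697-12769721, minus strand: actcaggtcacgtgaCgctccgggg
*Igfbp2*, chr1:72824465-72824489, plus strand: taggacccggcagagGcgggggagg
*Igfbp2*, chr1:72825372-72825396, plus strand: gtttagcggtgggcgTgctgctggc
*Igfbp3*, chr11:7213914-7213938, minus strand: gcgcccgggctgcccAgatgcgagc
*Igfbp4*, chr11:99041229-99041253, plus strand: gagccggtcccgggcAgccgctcag
*Igfbp5*, chr1:72874856-72874880, minus strand: tctttggaaacttctAaaagagcta
*Igfbp6*, chr15:102144171-102144195, plus strand: tcctgcacatacactCatgctaact
*Igfbp7*, chr5:77408036-77408060, minus strand: tccgggacccggactGctcactcgc
A C was the first base at 5 of the 14 starts (35.7%), 2 of *Igf2* and those of *Igf1r*, *Igf2r* and *Igfbp6*, against 16.3% of 32851 annotated starts of all genes. A C followed by 4 further C or T, read on the transcribed strand only, stood at 0 of the 14 starts and at 2.51% of all starts. Annotated starts were not measured by these libraries, whose reads were counted on coding sequences, and which *Igf2* promoter was in use is not given by the counts.

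RNAseq libraries held 1578627 to 3989908 reads on genes and ribosome profiling libraries 2544319 to 5157572, and the 10 genes took 0.128% to 0.190% of the former and 0.218% to 0.363% of the latter. Counts are given as CPM, reads scaled to a common library size with TMM factors within each assay. *Cdkn2a* RNA, the check of the labels, stood at 44.8 and 41.4 CPM in WT-shSCR, at 27.7 and 32.4 CPM in Arf-/--shSCR and at 638 and 678 CPM in WT-shARF, where its RNA rose by a log2 of 3.91 (adjusted p = 5.57e-18, edgeR). After knockout its log2 change was -0.54 in RNA (adjusted p = 0.197, edgeR) and -1.10 in footprints (adjusted p = 4.67e-05, edgeR). In WT-shARF its footprints rose as well, by a log2 of 2.99 (adjusted p = 3.49e-17, edgeR), from a mean of 78.8 to 635 CPM. A count of the gene does not separate ARF from INK4A, so this rise by itself does not measure ARF. The study showed knockdown of ARF by immunoblot and states that the hairpin leaves INK4A expression unchanged. A rise of *Cdkn2a* reads was not what the label would lead one to look for, and its cause was not tested. WT-shARF below means the libraries so labelled. None of 14 fibroblast markers was at 0 in both libraries of a group. *Col1a1* and *Vim* were high, while *Pdgfra*, *Lum* and *Dcn* had a mean of 3.16, 1.46 and 2.46 CPM of RNA in WT-shSCR. Their RNA summed to 23817 and 27108 CPM in WT-shSCR, 24697 and 25416 CPM in WT-shARF and 19492 and 18295 CPM in Arf-/--shSCR. The sum of the knockout was also lowest in footprints, with 40383 and 40633 CPM against 53567 and 50145 CPM in WT-shSCR and 58117 and 57567 CPM in WT-shARF. Abundant genes weigh most in these sums: mean *Fn1* RNA was 8565 CPM in WT-shSCR and 3079 CPM in Arf-/--shSCR. By edgeR's adjusted p under 0.05, 3 of 13 markers tested were higher and 2 lower in RNA after knockout. Of all genes 3.94% were higher and 3.99% lower. In footprints 5 of 14 were higher and 4 lower, beside 9.57% and 8.95% of all genes. The median log2 of the markers was -0.04 in RNA and 0.13 in footprints.

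In WT-shSCR MEFs the IGF axis was dominated by a single ligand and 2 binding proteins. To compare genes, CPM was divided by the length of the coding sequence in kilobases (RPKM, mean of 2 libraries). *Igfbp7* had the highest RNA level, 498 RPKM, followed by *Igfbp2* with 226, *Igf2* with 169, *Igf2r* with 106, *Igfbp4* with 80.2, *Igf1r* with 57.8 and *Igfbp6* with 24.0 RPKM. *Igfbp3*, *Igfbp5* and *Igf1* were the lowest, with 8.24, 5.45 and 3.37 RPKM of RNA, and of these neighbours *Igfbp5* and *Igf1* overlapped between libraries. On the same scale in footprints, *Igf2* came first with 1585 RPKM, ahead of *Igfbp7* with 968 and *Igfbp2* with 341 RPKM. *Igf2r* and *Igfbp4*, with 104 and 101 RPKM of footprints, did not differ beyond the spread of their libraries.

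**Figure D1:**
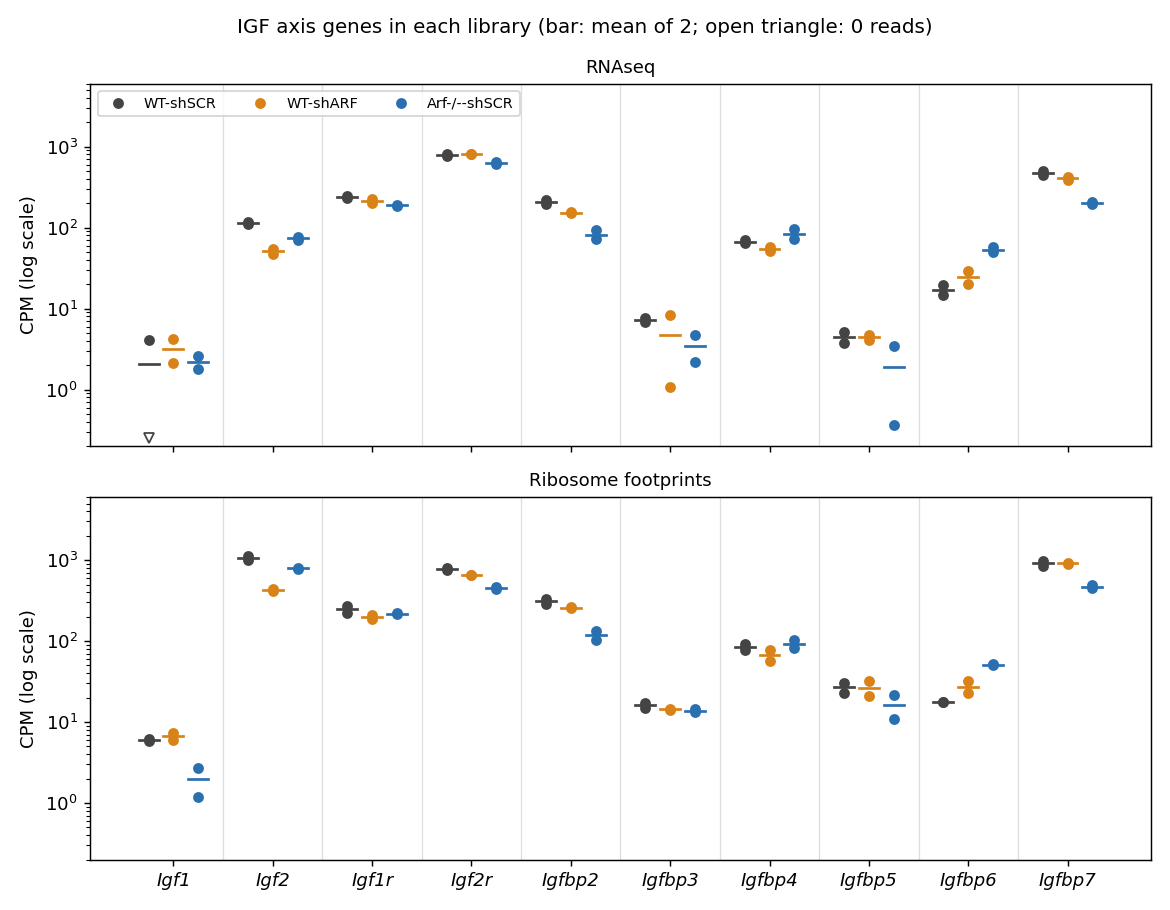
CPM (log scale) of the 10 IGF axis genes in each RNAseq library (top) and each ribosome profiling library (bottom), with groups by colour, a bar for the mean of 2 replicates and an open triangle for 0 reads. The 3 genes with the fewest RNA reads, *Igf1*, *Igfbp3* and *Igfbp5*, lie under 10 CPM in all RNAseq libraries, and *Igf2* in WT-shSCR lies near 114 CPM in RNAseq and near 1075 CPM in footprints.

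The order changed in the other groups. In the libraries labelled WT-shARF, footprints of *Igfbp7* (973 RPKM) stood above those of *Igf2* (628 RPKM). In Arf-/--shSCR MEFs *Igf2* kept the first place in footprints with 1163 RPKM and *Igfbp7* followed with 501 RPKM. There the RNA levels of *Igf2* (109 RPKM), *Igfbp4* (101), *Igfbp2* (89.8) and *Igf2r* (85.3) overlapped from each one to the next.

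Translation efficiency (TE) is the ratio of footprint CPM to RNA CPM. In WT-shSCR *Igf2* had a TE of 10.3 in replicate 1 and 8.58 in replicate 2, or 9.40 from the group means, which placed it 32nd from the top of 11419 genes. It placed 37th of 11458 genes with a TE of 8.36 in the libraries labelled WT-shARF, and 28th of 11452 genes with a TE of 10.6 in Arf-/--shSCR MEFs. So the ribosome load of *Igf2* per RNA read was near the top of all genes in each of the 3 groups. The other genes with enough RNA reads lay closer to the middle in WT-shSCR, with a TE of 1.94 for *Igfbp7*, 1.51 for *Igfbp2*, 1.26 for *Igfbp4*, 1.04 for *Igf1r*, 1.03 for *Igfbp6* and 0.983 for *Igf2r*. Over all genes the log2 TE had a median of -0.08 and a 5th to 95th percentile range of -2.28 to 1.48. RNA was fragmented with alkali and footprints were cut with RNase T1, and the reads of both were 17 to 34 nt long, so a TE compared between genes carries any difference in how these methods recover each sequence.

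**Figure D2:**
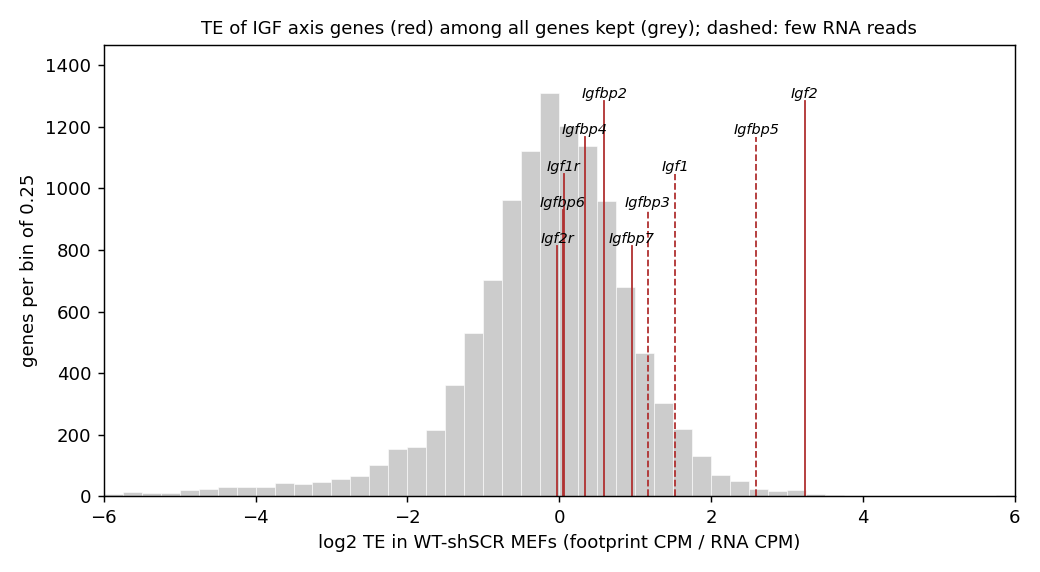
Number of genes per bin of 0.25 in log2 TE (footprint CPM over RNA CPM) in WT-shSCR MEFs for 11419 genes (grey), with the 10 IGF axis genes as red lines, dashed for *Igf1*, *Igfbp3* and *Igfbp5*, which had few RNA reads. *Igf2* lies at 3.23, far to the right of the median of -0.08, while *Igf2r*, *Igf1r* and *Igfbp6* lie near 0.

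Of the ligands, *Igf2* (chromosome 7, 142650766 to 142666816, minus strand) was the member that fell most in the libraries labelled WT-shARF, and it fell less in the knockout. Its RNA was 111 and 118 CPM in WT-shSCR, 47.8 and 54.2 CPM in WT-shARF and 71.0 and 77.4 CPM in Arf-/--shSCR. Its footprints were 1137 and 1012, 415 and 437, and 778 and 799 CPM in the same order. No library of one group overlapped with another group in either assay, and WT-shARF was the lowest in both. Such a lack of overlap is common with 2 libraries a group: it held for 51.6% of all genes tested in RNA and 57.6% in footprints between knockout and WT-shSCR, for 49.5% and 51.5% between WT-shARF and WT-shSCR, and for 47.1% and 50.6% between knockout and WT-shARF. In edgeR's quasi-likelihood F test, with Benjamini-Hochberg adjustment over all genes tested and a call at an adjusted p under 0.05, *Igf2* RNA fell in WT-shARF by 2.25-fold (log2 fold change -1.17, SE 0.181, adjusted p = 7.14e-05). Footprints fell there by 2.54-fold (log2 -1.34, SE 0.0804, adjusted p = 2.99e-14, edgeR). After knockout the log2 fold change was -0.48 in footprints (SE 0.0783, adjusted p = 2.54e-05, edgeR), a fall of 1.40-fold, and -0.64 in RNA (SE 0.185, adjusted p = 0.0397, edgeR). Both WT-shARF calls held in all 11 alternatives. The knockout call of footprints was lost without WT-shSCR replicate 1 or 2, with log2 values between -0.39 and -0.55. The knockout call of RNA was lost with DESeq2 (adjusted p = 0.131), with a replicate block (0.0594) and without any one of the 4 libraries (log2 -0.69 and -0.58 without WT-shSCR replicate 1 or 2, -0.58 and -0.69 without Arf-/--shSCR replicate 1 or 2).

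TE of *Igf2* was not called in either comparison. Its log2 change was 0.12 after knockout (95% confidence interval -0.233 to 0.480, adjusted p = 0.932, edgeR) and -0.17 in WT-shARF (-0.529 to 0.192, adjusted p = 0.913, edgeR). Both comparisons share the WT-shSCR libraries, so their values are not independent. The difference between knockout and WT-shARF, from a fit of those 2 groups, was 0.86 in footprints (SE 0.07, adjusted p = 1.78e-07, edgeR) and 0.52 in RNA (SE 0.181, adjusted p = 0.156, edgeR).

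*Igf1* (chromosome 10, 87858265 to 87937042, plus strand), the ligand that growth hormone induces in the liver after birth, was barely detected. RNAseq found 11 and 0 reads in WT-shSCR, 8 and 9 in WT-shARF and 5 and 6 in Arf-/--shSCR, and the 0 allows up to 3 reads. Its footprint reads were 19 and 15, 17 and 35, and 14 and 6, or 6.17 and 5.81, 6.04 and 7.28, and 2.75 and 1.18 CPM. The knockout libraries were the lowest in footprints and did not overlap with the others. That difference had a log2 fold change of -1.63 (SE 0.687, adjusted p = 0.101, edgeR) and was not called, and the footprints of WT-shARF differed from WT-shSCR by 0.15 (adjusted p = 0.921, edgeR). RNA of *Igf1* had too few reads to be tested.

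Of the receptors, *Igf1r* (chromosome 7, 67952827 to 68233668, plus strand), the kinase through which both ligands signal, was not called in any comparison. Its RNA was 231 and 243 CPM in WT-shSCR, 223 and 202 CPM in WT-shARF and 186 and 192 CPM in Arf-/--shSCR. Its footprints were 274 and 220.0, 209 and 188, and 222 and 216 CPM in the same order. WT-shSCR held the highest RNA values, but in footprints its second library lay between those of the knockout. After knockout the log2 change was -0.34 in RNA (95% confidence interval -0.656 to -0.0259, adjusted p = 0.185, edgeR) and -0.21 in footprints (-0.444 to 0.0286, adjusted p = 0.234, edgeR). In WT-shARF it was -0.18 in RNA (-0.463 to 0.107, adjusted p = 0.517, edgeR) and -0.33 in footprints (-0.563 to -0.0969, adjusted p = 0.0578, edgeR). The last of these passed the threshold without WT-shSCR replicate 2 (log2 -0.47, adjusted p = 0.00352, edgeR), with a replicate block (0.0275), with upper quartile factors (0.0426) and with a minimum of 10 counts per library (0.0386). Its log2 TE differed by 0.10 after knockout and by -0.14 in WT-shARF, neither called by edgeR (adjusted p = 0.956 and 0.926).

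*Igf2r* (chromosome 17, 12682406 to 12769664, minus strand), which removes IGF2 from the cell surface, lost footprints in the knockout. RNA stood at 811 and 766 CPM in WT-shSCR, 821 and 822 CPM in WT-shARF and 653 and 618 CPM in Arf-/--shSCR. Footprints stood at 801 and 749, 661 and 659, and 443 and 469 CPM. The 3 groups did not overlap in footprints, with the knockout lowest, and in RNA the knockout was again lowest, with WT-shARF just above WT-shSCR. Footprints fell 1.74-fold after knockout (log2 -0.80, SE 0.0847, adjusted p = 1.48e-08, edgeR), and RNA differed by -0.33 (SE 0.142, adjusted p = 0.179, edgeR) without a call. This footprint call was lost without WT-shSCR replicate 1 or 2, with log2 values between -0.74 and -0.84. In WT-shARF footprints fell by a log2 of 0.24 (log2 fold change -0.24, SE 0.0779, adjusted p = 0.0387, edgeR) and RNA differed by 0.04 (95% confidence interval -0.213 to 0.296, adjusted p = 0.898, edgeR). That small fall was no longer called without WT-shSCR replicate 1 (log2 -0.20, adjusted p = 0.127), without WT-shARF replicate 1 (-0.25, 0.201) or 2 (-0.23, 0.276), or with no filter (-0.23, 0.0561).

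TE of *Igf2r* was 0.988 and 0.977 in WT-shSCR, 0.805 and 0.801 in WT-shARF and 0.679 and 0.759 in Arf-/--shSCR. Both knockout replicates lay below both WT-shSCR replicates, and the gene moved from the 52.4th to the 33.3rd percentile of all genes. The share of all genes with such a lack of overlap in TE was not computed. Its log2 TE changed by -0.50 after knockout (SE 0.152, 95% confidence interval -0.820 to -0.189), the largest TE difference among the 7 members with enough RNA reads. The unadjusted p was 0.00313 and the adjusted p 0.302 in edgeR, so it was not called, while DESeq2 gave a log2 of -0.47 with an adjusted p of 0.0215. DESeq2 called 62 genes higher and 13 lower of 11314 in that comparison. By size, the edgeR change in TE of *Igf2r* stood at the 68.0th percentile of all genes tested. Over the 12 alternatives the value lay between -0.57 and -0.38 with adjusted p between 0.0215 and 0.734. In WT-shARF the log2 TE differed by -0.27 (-0.563 to 0.0187, adjusted p = 0.775, edgeR).

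Of the binding proteins, *Igfbp2* (chromosome 1, 72824503 to 72852474, plus strand) and *Igfbp7* (chromosome 5, 77349240 to 77408041, minus strand) fell most after knockout, 2.55-fold and 2.32-fold in RNA. *Igfbp2* is a secreted protein that binds IGF2 with high affinity and is abundant in the embryo. *Igfbp7* binds IGFs more weakly than the other family members and sits in the extracellular matrix.

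*Igfbp2* RNA was 217 and 196 CPM in WT-shSCR, 155 and 150.2 CPM in WT-shARF and 71.7 and 92.5 CPM in Arf-/--shSCR. Its footprints were 335 and 290.0, 258 and 262, and 104 and 132 CPM. The groups did not overlap in either assay, with WT-shARF between the other two. After knockout RNA fell 2.55-fold (log2 -1.35, SE 0.177, adjusted p = 7.16e-05, edgeR) and footprints fell 2.71-fold (log2 -1.44, SE 0.125, adjusted p = 3.07e-10, edgeR). The footprint call after knockout was lost without WT-shSCR replicate 1 or 2. In WT-shARF RNA fell by a log2 of 0.46 (log2 fold change -0.46, SE 0.144, adjusted p = 0.0473, edgeR), and the footprint value of -0.28 (SE 0.0997, adjusted p = 0.0706, edgeR) was not called. This RNA call was lost without WT-shSCR replicate 1 (log2 -0.38, adjusted p = 0.239), without WT-shARF replicate 1 (-0.49, 0.213) or 2 (-0.41, 0.383), with DESeq2 (0.147), with no filter (0.0646) and with all groups in one fit (0.099). The footprint value was called without WT-shSCR replicate 2 (-0.37, adjusted p = 0.0181) and with a replicate block (0.043).

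*Igfbp7* RNA was 442 and 494 CPM in WT-shSCR, 387 and 427 CPM in WT-shARF and 210.0 and 196 CPM in Arf-/--shSCR. Footprints were 977 and 841, 925 and 902, and 453 and 488 CPM. The knockout lay apart from all other libraries, and the footprints of the other 2 groups overlapped. RNA fell 2.32-fold after knockout (log2 -1.22, SE 0.15, adjusted p = 3.94e-05, edgeR) and footprints fell 1.98-fold (log2 -0.98, SE 0.0864, adjusted p = 3.68e-10, edgeR). In WT-shARF the log2 values were -0.21 in RNA (95% confidence interval -0.481 to 0.0515, adjusted p = 0.368, edgeR) and -0.0039 in footprints (-0.161 to 0.153, adjusted p = 0.985, edgeR). Neither gene had a called TE: the log2 values after knockout were -0.12 for *Igfbp2* and 0.20 for *Igfbp7*.

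*Igfbp6* (chromosome 15, 102144362 to 102149511, plus strand), which prefers IGF2 over IGF1, was the member that rose. Its RNA was 19.6 and 14.7 CPM in WT-shSCR, 20.2 and 28.8 CPM in WT-shARF and 49.5 and 57.1 CPM in Arf-/--shSCR. Footprints were 17.5 and 17.8, 22.7 and 31.8, and 50.2 and 52.2 CPM. Both assays had the knockout highest, without overlap. RNA rose 3.01-fold after knockout (log2 1.59, SE 0.265, adjusted p = 0.000695, edgeR) and footprints rose 2.83-fold (log2 1.499, SE 0.227, adjusted p = 8.15e-06, edgeR). In WT-shARF the log2 values of 0.50 in RNA (SE 0.309, adjusted p = 0.377, edgeR) and 0.63 in footprints (SE 0.301, adjusted p = 0.198, edgeR) were not called. Its level in WT-shSCR rested on 46 and 54 footprint reads and 23 and 52 RNA reads.

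*Igfbp4* (chromosome 11, 99041244 to 99054392, plus strand), a binding protein that the protease PAPPA cleaves to free its ligand, was not called against WT-shSCR. RNA was 64.1 and 69.5 CPM in WT-shSCR, 57.9 and 51.1 CPM in WT-shARF and 72.8 and 95.1 CPM in Arf-/--shSCR, and footprints were 76.9 and 91.4, 57.2 and 77.2, and 104 and 82.3 CPM. RNA of the knockout was above and that of WT-shARF below WT-shSCR without overlap, while footprints overlapped. The log2 differences from WT-shSCR were 0.32 in RNA (95% confidence interval -0.115 to 0.749, adjusted p = 0.388, edgeR) and 0.11 in footprints (-0.205 to 0.434, adjusted p = 0.682, edgeR) after knockout. They were -0.32 in RNA (-0.715 to 0.0824, adjusted p = 0.378, edgeR) and -0.32 in footprints (-0.679 to 0.0376, adjusted p = 0.279, edgeR) in WT-shARF.

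*Igfbp3* (chromosome 11, 7206086 to 7213923, minus strand), the main IGF carrier in serum and a known p53 target, and *Igfbp5* (chromosome 1, 72857932 to 72874884, minus strand) had few reads. RNAseq gave 2 to 35 reads per library for *Igfbp3* and 1 to 17 for *Igfbp5*, so folds are given for footprints only, where they had 39 to 73 and 55 to 110 reads. *Igfbp3* footprints were 17.2 and 15.1 CPM in WT-shSCR, 14.6 and 14.1 CPM in WT-shARF and 14.3 and 13.4 CPM in Arf-/--shSCR. The log2 differences were -0.26 after knockout (SE 0.338, adjusted p = 0.667, edgeR) and -0.18 in WT-shARF (SE 0.36, adjusted p = 0.828, edgeR), so no difference was detectable at this depth. *Igfbp5* footprints were 23.1 and 30.6 CPM in WT-shSCR, 32.3 and 21.01 CPM in WT-shARF and 10.8 and 21.7 CPM in Arf-/--shSCR. Knockout libraries of *Igfbp5* lay below WT-shSCR, with a log2 fold change of -0.75 (SE 0.314, adjusted p = 0.0960, edgeR) that was not called. It was called without Arf-/--shSCR replicate 2 (log2 -1.33, adjusted p = 0.0207) and with a replicate block (0.0481). In WT-shARF the log2 value was -0.03 (SE 0.287, adjusted p = 0.965, edgeR).

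The members were chosen with earlier results of these data known, so their counts are a description and were not tested against the shares of all genes. Counted over the family, RNA of 8 members could be tested after knockout, and 1 was called higher and 3 lower, where 3.94% of all 10659 genes tested were called higher and 3.99% lower. Footprints of all 10 could be tested, with 1 higher and 4 lower, where 9.57% of 10737 genes were higher and 8.95% lower. In WT-shARF 0 of 9 members were called higher and 2 lower in RNA (3.11% and 4.17% of all genes), and 0 of 10 higher and 2 lower in footprints (5.63% and 5.5%). Between knockout and WT-shARF 3 of 9 members were called in RNA (2.57% of all genes called) and 5 of 10 in footprints (8.23%). The median log2 fold change of the members tested was -0.49 in RNA and -0.62 in footprints after knockout, and -0.21 in both assays in WT-shARF, beside medians of all genes within 0.01 of 0. Leaving out WT-shSCR replicate 1 or 2 from the footprint fit of the knockout ended all 5 member calls, with adjusted p between 0.0724 and 0.108 and log2 values between -0.39 and -0.55 for *Igf2*, -0.74 and -0.84 for *Igf2r*, -1.33 and -1.53 for *Igfbp2*, 1.49 and 1.52 for *Igfbp6* and -0.87 and -1.08 for *Igfbp7*. Those edgeR fits called 0 of 11391 and 0 of 11340 genes in all, with 2467 and 2553 genes at an unadjusted p under 0.05.

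**Figure D3:**
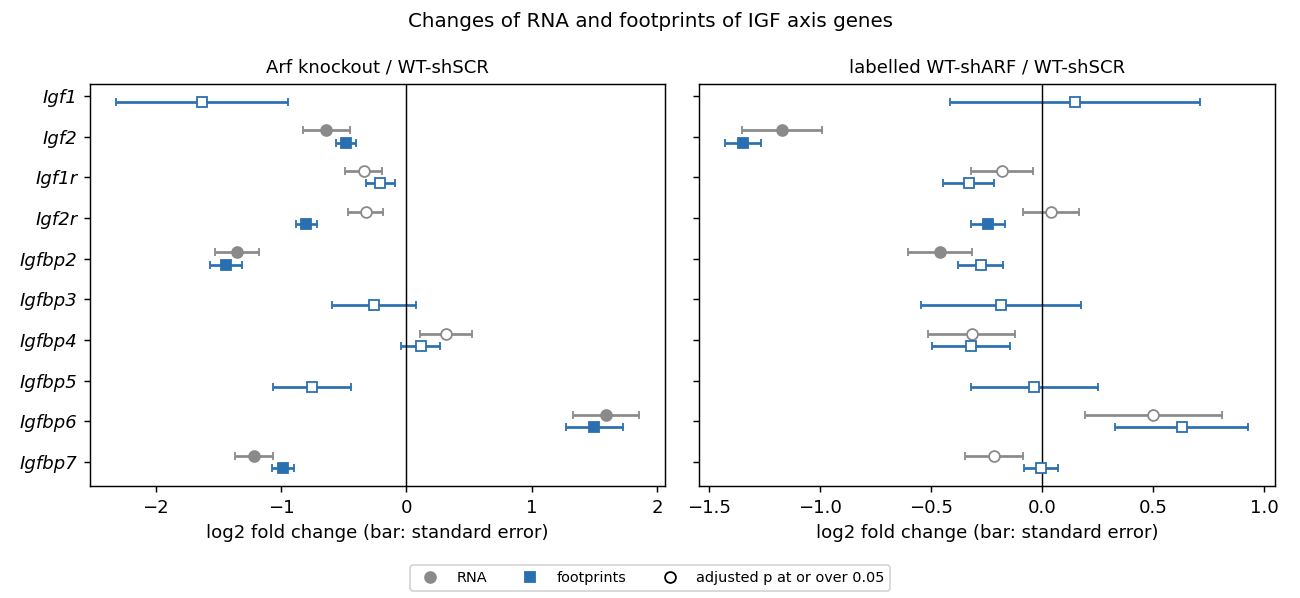
Log2 fold change of RNA (grey circles) and footprints (blue squares) of each IGF axis gene against WT-shSCR, for the *Arf* knockout (left) and the libraries labelled WT-shARF (right), with bars for the standard error and open symbols for an adjusted p at or over 0.05. RNA of *Igf1*, *Igfbp3* and *Igfbp5* is left out for few reads. *Igfbp6* lies to the right and *Igfbp2* and *Igfbp7* to the left after knockout, *Igf2* lies furthest left in WT-shARF, and *Igf2r* has its footprint point left of its RNA point on both sides.

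TE was called by edgeR for 0 of 10 members in any of the 3 comparisons, where 0.194% of 11314 genes were called after knockout, 0.0354% of 11289 genes in WT-shARF and 0.043% of 11632 genes between these groups. At an unadjusted p under 0.05 the member count was 1 after knockout, *Igf2r*, and 0 in WT-shARF, against 6.83% and 6.65% of all genes, and DESeq2 called 1 and 0 members. Over all genes tested DESeq2 called 62 higher and 13 lower after knockout, and 47 higher and 3 lower in WT-shARF. Between knockout and WT-shARF the member counts at an unadjusted p under 0.05 and by DESeq2 were both 0. There 880 of 11632 genes stood at an unadjusted p under 0.05, and DESeq2 called 11 higher and 7 lower.

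Other genes of the axis were read beside the family. The counts in this and the later lists stand beside these shares of all genes tested. After knockout 3.94% were called higher and 3.99% lower in RNA, and 9.57% and 8.95% in footprints. In WT-shARF the shares were 3.11% and 4.17% in RNA and 5.63% and 5.5% in footprints. No list was tested against them. Of 20 further genes (insulin receptor, substrates, binding protein proteases, RNA binding proteins of *Igf2* and adaptors), 13 could be tested in RNA after knockout, with 0 higher and 3 lower and a median log2 of -0.18. They were *Pappa*, the protease that cleaves IGFBP4 (log2 -1.38, adjusted p = 0.000133, edgeR), *Htra1*, a secreted protease (-0.68), and *Shc1*, an adaptor of receptor kinases (-0.58). In footprints 4 of 15 were higher and 2 lower (median -0.02). *Pappa* fell (log2 -1.39, adjusted p = 1.44e-09, edgeR), from 218 ± 19.1 to 84.9 ± 7.71 CPM (SD, n = 2), and *Igf2bp1*, which binds *Igf2* mRNA, rose by 0.67 (adjusted p = 0.00118, edgeR). *Htra1* (-0.59) and *Igf2bp2* (0.51) were the next by size.

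In WT-shARF 0 of 13 of these genes were called higher and 3 lower in RNA (median -0.04): *Grb14* (log2 -1.19), *Shc1* (-0.79) and *Grb10* (-0.52). In footprints 3 of 14 were higher and 2 lower (median 0.10), led by *Grb14* (-1.03), *Igf2bp1* (0.68), *Igf2bp3* (0.64) and *Grb10* (-0.60, adjusted p = 6.27e-06, edgeR). *Grb10* and *Grb14* encode adaptors that bind the insulin and IGF1 receptors and dampen their signal. *Grb10* footprints were 572 ± 12.9 CPM in WT-shSCR, 379 ± 15.2 CPM in WT-shARF and 792 ± 19.8 CPM in Arf-/--shSCR (SD, n = 2), so it fell in WT-shARF and rose by a log2 of 0.44 after knockout (adjusted p = 0.000169, edgeR).

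Downstream, 18 genes of the PI3K-AKT-FOXO pathway were all tested. RNA after knockout had 0 higher and 2 lower (median log2 -0.16), *Inpp5d* (-3.58) and the kinase subunit *Pik3cb* (-0.996). Footprints had 0 higher and 4 lower (median -0.08), adding the regulatory subunit *Pik3r3* (-1.04) and the transcription factor *Foxo3* (-0.88) to *Inpp5d* (-3.48) and *Pik3cb* (-0.73). *Inpp5d* encodes SHIP1, a phosphatase best known from blood cells, and its RNA was 21.2 ± 7.39 CPM in WT-shSCR and 1.74 ± 0.627 CPM in Arf-/--shSCR (SD, n = 2). In WT-shARF edgeR called 0 of 18 in RNA (median -0.05), with 1 at an unadjusted p under 0.05 and 0 by DESeq2. Over all genes 2215 of 10503 stood at that unadjusted p, and DESeq2 called 123 higher and 195 lower. In footprints edgeR called *Pik3r3* alone (log2 -1.69, adjusted p = 0.00294), with a median of -0.09 over the 18 genes. A single lower gene of 18 is near the 5.5% of all genes called lower there.

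*Igf2* belongs to a set of imprinted genes that act on embryonic growth, and 14 others were read beside it. After knockout 2 of 10 tested were higher in RNA and 0 lower (median log2 0.42), *Mest* (1.79, adjusted p = 0.00183, edgeR) and the amino acid transporter *Slc38a4* (0.68). In footprints 5 of 11 were higher and 1 lower (median 0.03), led by *Dlk1* (1.98, adjusted p = 1.21e-11, edgeR), a Notch-like membrane protein, then *Gatm* (-1.96), *Nnat* (1.68) and *Mest* (1.38). *Igf2* fell while the called members of this list, other than *Gatm*, rose. Of those not called, mean footprints after knockout were lower for *Peg3* (117 to 92.6 CPM) and *Ndn* (78.2 to 58.6 CPM). They were also lower for *Plagl1* (31.4 to 26.0 CPM) and *Slc22a18* (16.1 to 9.92 CPM), and higher for *Cdkn1c* (39.4 to 41.5 CPM). In WT-shARF 0 of 10 were higher and 3 lower in RNA (median -0.44), *Peg3* (-0.99), *Ndn* (-0.85) and *Grb10* (-0.52). The footprints of the same 3 genes were lower, by log2 values of -0.85, -0.57 and -0.60, with 0 of 11 higher (median -0.26). *Grb10* is on both this list and that of the further IGF axis genes. TE was called by edgeR for 0 of 14 further axis genes, 0 of 18 pathway genes and 0 of 11 imprinted genes in both comparisons. At an unadjusted p under 0.05 the counts were 2, 1 and 1 after knockout and 1, 0 and 0 in WT-shARF, and DESeq2 called 0 in each. Of all genes 6.83% and 6.65% stood at that unadjusted p in these comparisons.

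Markers of other cell types differed between the groups, and their part in the results above was not tested. The 17 macrophage markers summed to 782 and 763 CPM of RNA in WT-shSCR, 390 and 305 CPM in WT-shARF and 84.1 and 128 CPM in Arf-/--shSCR, and to 910.1 and 880.2, 431 and 348, and 66.5 and 89.2 CPM of footprints. None was at 0 in both libraries of any group. After knockout 14 of 17 fell in RNA and 16 of 16 tested in footprints, and in WT-shARF 7 of 17 and 10 of 16 fell. In bulk samples fewer cells of a type and less RNA per cell cannot be told apart. *Igfbp2* in both assays, *Igfbp7* and *Igf1r* in RNA and *Igf2r* in footprints had the same order of groups as the macrophage sum, without overlap, and *Igfbp6* had the opposite order in both assays. Lack of overlap between 2 groups alone held for 47.1% to 57.6% of all genes tested. The share of all genes with either order over the 3 groups was not computed, so these orders set no member apart. *Igfbp7* footprints were 925 and 902 CPM in WT-shARF, where the sum was 431 and 348 CPM, and overlapped with WT-shSCR. *Igf2* was lowest in WT-shARF, where the sum was intermediate.

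**Figure D4:**
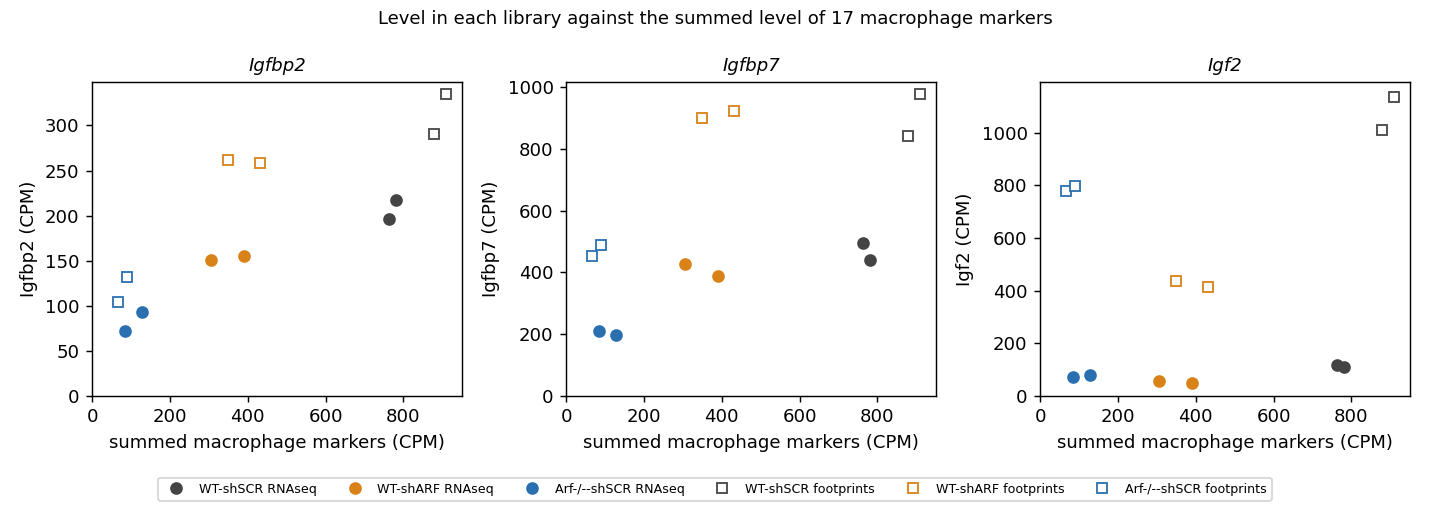
CPM of *Igfbp2*, *Igfbp7* and *Igf2* in each of the 12 libraries against the summed CPM of 17 macrophage markers in the same library (filled circles, RNAseq; open squares, footprints; colours, groups). *Igfbp2* rises with the sum in each assay, *Igfbp7* is lowest in the knockout, where the sum is lowest too, and *Igf2* is lowest in WT-shARF at a middle value of the sum.

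The sum of the 11 mesothelial and epithelial markers was highest after knockout, where the macrophage sum was lowest. In WT-shARF RNA both sums were below WT-shSCR. These 11 markers summed to 103 and 100.04 CPM of RNA in WT-shSCR, 67.4 and 79.4 CPM in WT-shARF and 188 and 208 CPM in Arf-/--shSCR. *Krt19* alone had a mean of 74.2 CPM of RNA in WT-shSCR. *Epcam* and *Cdh1* were near the floor, with 0.398 and 1.16 CPM of RNA in Arf-/--shSCR. After knockout 5 of 9 tested rose in RNA and 8 of 9 in footprints, and in WT-shARF *Krt19* fell in RNA. Their footprint sums were 91.6 and 116, 76.0 and 102, and 241 and 232 CPM, and *Upk3b*, *Lrrn4* and *Epcam* were at 0 in both WT-shSCR footprint libraries. *Igfbp6* rose in the same comparison, from 17.7 ± 0.199 to 51.2 ± 1.37 CPM of footprints (SD, n = 2), and their part in its rise was not tested. Endothelial markers summed to 41 to 57 CPM of RNA and 18.8 to 34.9 CPM of footprints per library, with *Cdh5* at 0 in WT-shSCR and Arf-/--shSCR RNA. Only 4 of the 10 could be tested in RNA and 2 in footprints in either comparison with WT-shSCR. Of those, 0 were called by edgeR (also 0 at an unadjusted p under 0.05 and by DESeq2), which leaves the others without a test. Of 5 muscle and smooth muscle markers tested, 4 fell in RNA and 5 in footprints in WT-shARF (*Cnn1* by a log2 of -1.07 in RNA), and after knockout 0 were called in RNA by edgeR (also 0 at an unadjusted p under 0.05 and by DESeq2) and 1 rose in footprints.

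For each member called against WT-shSCR, the 3 genes whose log2 CPM was most like it were found among 7489 genes over the 12 libraries, after centring within each assay. This is a description over libraries that share groups, with no test. *Igf2* was closest to *Nxn* (Pearson r = 0.98), *Tmem181a* (0.966) and *Ptgs2* (0.961), *Igf2r* to *Epha4* (0.964), *Gatsl3* (0.953) and *Nes* (0.946), and *Igfbp6* to *Cdh3* (0.975), *Nop56* (0.974) and *Npm1* (0.97). *Igfbp7* was closest to the matrix genes *Sparc* (0.981) and *Col4a1* (0.973) and to *Ass1* (0.975). The 3 genes nearest to *Igfbp2* were *C1qc* (0.988), *Csf1r* (0.986) and *Lcp1* (0.986), of which the first 2 are on the macrophage list. Among members, r over the 12 libraries was 0.951 between *Igfbp2* and *Igfbp7*, 0.908 between *Igf2r* and *Igfbp2* and 0.871 between *Igf2r* and *Igfbp7*. *Igfbp6* ran opposite to these 3 genes, with r of -0.921 to *Igfbp7*, -0.920 to *Igfbp2* and -0.859 to *Igf2r*, and the next largest r by size was 0.747, between *Igfbp2* and *Igfbp5*.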

How the data were processed

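The authors clipped adapters, split barcodes, removed molecular identifiers and reads of rRNA and noncoding RNA with Bowtie2, aligned to mm10 with TopHat and deposited raw HTSeq counts on coding sequences. Tool versions are not given in the sources used here, and a yeast spike-in was not used. HTSeq rows that name no gene were left out: alignments that were not unique were 79.2% to 81.4% of RNAseq and 46.3% to 52.9% of footprint alignments, and those on no feature 14.9% to 15.5% and 9.41% to 12.0%.

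Tests used edgeR 4.0.16, run in R 4.3.3, on the counts (filterByExpr, TMM, quasi-likelihood F test, Benjamini-Hochberg, threshold 0.05), with 4 libraries per comparison of RNA or footprints, and 8 for TE, tested as the assay-by-condition term. The standard error is the log2 fold change divided by the root of F. With 2 against 2, the smallest exact permutation p is 0.33, so calls rest on the spread shared between genes. Coding lengths came from GENCODE M21 on GRCm38. As deduplication is not described, counts can include PCR copies.

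All 10 members are named whatever their values. Of the other lists (further IGF axis, PI3K-AKT-FOXO, imprinted growth, fibroblast, macrophage, mesothelial and epithelial, endothelial, muscle) at most 4 called genes per comparison are named, by size. Likeness used genes of at least 10 CPM and a prior count of 2. The members and lists were chosen with earlier results of these data known. Alternatives were DESeq2 1.42.0, RLE and upper quartile factors, a minimum of 10 counts per library, no filter, one fit of all groups, a replicate block, a block for cultures (TE), and leaving out each library. In *Igf1*, *Igfbp3* and *Igfbp5*, with under 40 reads in each RNAseq library, no fold of RNA or TE is printed. Fibroblast markers called were 3 higher and 2 lower of 13 in RNA and 5 higher and 4 lower of 14 in footprints after knockout, and 3 and 1 of 12 and 6 and 1 of 13 in WT-shARF.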

Additional observations from a re-analysis of the deposited data

Results flagged for a closer look

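A direct comparison of Arf-/--shSCR MEFs with the libraries labelled WT-shARF tests whether the members' differences from WT-shSCR are unequal in these groups. edgeR's quasi-likelihood F test called 3 of 9 members in RNA, where 2.57% of 10632 genes were called, and 5 of 10 in footprints, where 8.23% of 10941 genes were called. These are flagged because the effects of the groups differ.

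*Igf2* footprints were higher in the knockout by a log2 of 0.86 (SE 0.07, adjusted p = 1.78e-07, edgeR). Footprints of *Igf2r* were lower in the knockout (log2 -0.56, SE 0.0716, adjusted p = 4.15e-05, edgeR). *Igfbp2* was lower in RNA (log2 -0.90, SE 0.166, adjusted p = 0.0106, edgeR) and in footprints (-1.17, SE 0.116, adjusted p = 1.94e-06). *Igfbp7* was lower in RNA (log2 -1.01, SE 0.129, adjusted p = 0.00144, edgeR) and in footprints (-0.99, SE 0.0696, adjusted p = 2.85e-08). *Igfbp6* was higher in RNA (log2 1.08, SE 0.23, adjusted p = 0.0257, edgeR) and in footprints (0.85, SE 0.192, adjusted p = 0.00917).

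These calls rest on both WT-shARF libraries. Without WT-shARF replicate 1 or 2, 0 members were called in footprints, with log2 values of 0.83 and 0.88 for *Igf2*, -0.55 and -0.58 for *Igf2r*, -1.16 and -1.17 for *Igfbp2*, 0.67 and 1.13 for *Igfbp6* and -0.95 and -1.02 for *Igfbp7*. In RNA, 1 member (*Igfbp7*) was called without replicate 1 and 0 without replicate 2, with log2 values of -0.86 and -0.95 for *Igfbp2*, 0.90 and 1.37 for *Igfbp6*, and -0.96 for *Igfbp7* without replicate 2. Few genes of any kind were called in these fits, 0 of 11365 and 1 of 11301 in footprints and 35 of 11364 and 6 of 11115 in RNA, so the loss is not particular to the members. *Igfbp4*, not called with all libraries (log2 0.62 in RNA, adjusted p = 0.115, and 0.43 in footprints, adjusted p = 0.128, edgeR), was called in RNA without Arf-/--shSCR replicate 1 (0.81) and in footprints without Arf-/--shSCR replicate 2 (0.58). TE was called for 0 of 10 members by edgeR, where 0.043% of 11632 genes were called, and for 0 both at an unadjusted p under 0.05 and by DESeq2. Of all genes, 880 stood at an unadjusted p under 0.05, and DESeq2 called 11 higher and 7 lower.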

How the results depend on the processing

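For 62 results of members, 686 values were computed under alternatives. Of these, 614 kept the direction and side of the threshold, 41 lost a call, 11 gained one and 20 changed sign. No value that changed sign was past the threshold under either setting, the smallest adjusted p among them being 0.522. In all 11 alternatives the calls of *Igfbp2*, *Igfbp6* and *Igfbp7* RNA after knockout and of *Igf2* RNA and footprints in WT-shARF were kept.

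Over all genes tested, calls also moved. With DESeq2, TE calls after knockout went from 10 higher and 12 lower to 62 and 13. RNA calls with DESeq2 went from 420 and 425 to 230 and 237 after knockout. In WT-shARF they went from 327 and 438 to 123 and 195. With the replicate block, footprint calls went from 1027 and 961 to 1082 and 993 after knockout. In WT-shARF they went from 580 and 567 to 696 and 680. Counts of members called moved as follows, and the cause was not tested. TE after knockout went from 0 to 1 with DESeq2. RNA after knockout went from 4 to 3 with DESeq2, with the replicate block and without any one of the 4 libraries, *Igf2* being the call lost. RNA in WT-shARF went from 2 to 1 with DESeq2, no filter and all groups in one fit, and ranged from 1 to 2 over single libraries left out. Footprints in WT-shARF went from 2 to 1 with no filter, to 3 with upper quartile factors and with at least 10 counts, and to 4 with the replicate block, and ranged from 1 to 4. Footprints after knockout went from 5 to 6 with the replicate block. Leaving out single libraries gave 0 to 6 for footprints after knockout, 0 to 4 for RNA between knockout and WT-shARF (3) and 0 to 7 for footprints between them (5). An arm left with 1 library is assumed to vary like the other.

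Signs changed for *Igfbp2* TE (0.0102), *Igfbp6* TE (0.00556) after knockout and *Igfbp7* footprints in WT-shARF (0.00583) with no filter, for the last also with the replicate block (0.000473), and for *Igfbp4* TE in WT-shARF with upper quartile factors (-0.0123) and at least 10 counts (-0.00034). With single libraries left out, log2 TE after knockout ranged from -0.0758 to 0.385 for *Igf1r*, -0.600 to 0.143 for *Igfbp4* and -0.311 to 0.0614 for *Igfbp6*, and in WT-shARF from -0.360 to 0.0771, -0.371 to 0.291 and -0.111 to 0.283 for these genes and from -1.94e-06 to 0.422 for *Igfbp7*. Footprints ranged from -0.0576 to 0.280 for *Igfbp4* after knockout, and in WT-shARF from -0.363 to 0.275 for *Igfbp5* and -0.101 to 0.0992 for *Igfbp7*.

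Replicate numbers came from the labels. Same-numbered samples hardly deviated together (r from -0.024 to 0.068 over 11603 genes in 15 pairs of groups). The largest r was between the RNAseq and footprint libraries of Arf-/--shSCR. Such values cannot show whether same-numbered samples shared a culture or a day, which stays unknown, and the main fits did not pair them. With the replicate block 3 members were called in RNA and 6 in footprints after knockout, and 2 and 4 in WT-shARF. Over all genes the block gave 417 higher and 410 lower in RNA after knockout, and 1082 and 993 in footprints. In WT-shARF it gave 437 higher and 574 lower in RNA, and 696 and 680 in footprints. The median level of members, 83.0 CPM, moved by less than the replicate spread with RLE factors or plain library totals. Depth limits RNA and TE of *Igf1*, *Igfbp3* and *Igfbp5*.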
